A study of Mus musculus with 4 samples.

Results

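Septins are GTP-binding proteins that join into rods, filaments and rings beneath the cell membrane. They are known as scaffolds of the cleavage furrow in dividing cells and as a stiffening layer of the cell cortex, where they meet actin, myosin and microtubules. Rods are built from different family members, which are sorted by sequence into the SEPT2, SEPT3, SEPT6 and SEPT7 groups, and a member can often be replaced by another of its own group. In human acute leukemia several septin genes are known as fusion partners of the gene MLL.

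The 10 septin genes described here were taken by name: Septin1 to Septin9 and Septin11, through every probe set of the array whose platform gene symbol names one of them. The family was selected on the signals of the same leukemic against mature comparison, where Septin8 was among the largest increases, so the values of the septin genes in that comparison are a description without a test. Of the 10 genes, 9 had a probe set of their own, 26 probe sets in all, against 18193 genes and 34945 probe sets with 1 gene symbol on the whole array. Septin5 had only 1 probe set, shared with Gp1bb, which names no single gene. Of the 26 probe sets 20 passed the filter on low signals, and 6 lay below it. They left 8 readable genes of 12378 tested, because both probe sets of Septin4 were too dim. Septin10, Septin12 and Septin14, which are also on the array, were not described here.

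The 4 arrays held total RNA of bone marrow of C57BL/6J mice, 2 per group. The leukemic group, labelled MN1 leukemic, was marrow of mice carrying the transcriptional coregulator MN1. It had been introduced with a retrovirus into marrow taken 4 days after 150 mg/kg fluorouracil and stimulated for 48 hours with interleukin-6, interleukin-3 and stem cell factor. The cells were sorted for GFP, kept in those cytokines and injected into syngeneic recipients irradiated with 750 cGy, together with helper marrow. Helper and surviving host cells can therefore lie in the leukemic samples, and the labels do not say whether GFP was sorted again at harvest. The mature group, labelled Gr1/Mac1, was marrow cells of healthy mice positive for Gr1 and CD11b, antigens of granulocytes and monocytes. The arrays include no healthy progenitors, so leukemia and immaturity cannot be told apart, and in bulk RNA fewer cells of a type and less RNA per cell cannot be told apart. The design text calls the arrays of a group biological replicates, while the labels give neither age nor sex and do not say whether animals were pooled.

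Values are MAS5 signals, a linear intensity, and ± is the SD (n = 2). Log2 fold changes were computed from log2(signal + 16), leukemic over mature, and understate changes of dim genes. The SE comes from limma. Signals of different probe sets are not compared with each other, because probes differ in how strongly they bind.

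The groups also differed in RNA quality controls and hybridization controls, and the mature arrays differed from each other in sex-linked genes. Signal at the 3′ end over the 5′ end was 3.09 to 3.27 for beta-actin in leukemic against 1.32 to 1.39 in mature arrays. For Gapdh it was 3.69 to 3.94 against 1.82 to 2.18. The geometric mean of the 18 hybridization controls was 8950 to 11920 against 4044 to 4167. Xist read 7138 in mature replicate 1 and 114.5 in mature replicate 2, with 14510 and 19640 in the leukemic arrays, and the Y-linked Eif2s3y read 4409 in mature replicate 2 and at most 3.01 elsewhere. Itgam, which encodes CD11b, read 306 and 584 in leukemic and 4288 and 4407 in mature arrays, while Mn1 read 17.7 and 92.6 against 3.92 and 12.1. The part of these differences in the septin values was not tested.

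Septin8, of the SEPT6 group, read far higher in leukemic than in mature marrow. Its brightest probe set read 4656 and 6516 in leukemic and 20.2 and 2.47 in mature marrow. Both leukemic arrays lay far above both mature arrays, and the mature signals were at the bottom of the scale. The log2 fold change was 7.74 (SE 0.40), from means of 5586 ± 1315 and 11.3 ± 12.6, and 0.0566% of all tested genes had one farther from 0. Because the mature signals were so dim, the size depended on the pseudocount, with 9.33 at a pseudocount of 1 and 6.22 at 64. The brightest Septin8 probe set passed the filter only through its leukemic signal, so it had to differ.

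Both other Septin8 probe sets had the same direction and different sizes. The dimmest, which shares its source sequence accession with the first, read 638 and 1058 against 1.81 and 3.21, a difference of 5.50 (SE 0.43) on the log2 scale. The remaining one, from another source sequence, read 700.2 and 826 against 141 and 92.4, a difference of 2.57 (SE 0.33). In the mature arrays this probe set was well above the filter limit of 47.6, whereas both others were below it. As the mean of its probe sets Septin8 was higher by 5.27. Leukemic replicate 2 read above leukemic replicate 1 at all 3 probe sets, by 0.23 to 0.72 on the log2 scale.

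Promoter sequences are shown for Septin8, Septin9 and Septin11, the septin genes with the largest differences, as the 250 bases before an annotated start on the plus strand (RefSeq, GRCm38.p6). Capitals mark matches to any of 9 motifs searched on both strands. The motifs were the GC box GGGCGG, the CCAAT box (spelled as its name), the TATA box TATAAA, the MEIS motif TGACAG, the HOX-PBX motif TGATTNAT, the E-box CACGTG, the GATA motif AGATAA, the ETS motif CCGGAAG and the C/EBP motif TTGCNNAA.
Septin8, chr11:53519486-53519735: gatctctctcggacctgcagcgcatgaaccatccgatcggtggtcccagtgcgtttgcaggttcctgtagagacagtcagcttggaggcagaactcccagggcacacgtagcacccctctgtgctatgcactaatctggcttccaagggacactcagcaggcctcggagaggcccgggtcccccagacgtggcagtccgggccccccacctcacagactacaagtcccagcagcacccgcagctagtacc
Septin9, chr11:117199411-117199660: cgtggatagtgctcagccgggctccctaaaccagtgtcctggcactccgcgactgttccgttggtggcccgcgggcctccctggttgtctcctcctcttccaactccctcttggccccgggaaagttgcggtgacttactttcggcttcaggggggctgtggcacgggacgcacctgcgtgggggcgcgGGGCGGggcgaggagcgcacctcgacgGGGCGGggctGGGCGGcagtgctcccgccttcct
Septin11, chr5:93093166-93093415: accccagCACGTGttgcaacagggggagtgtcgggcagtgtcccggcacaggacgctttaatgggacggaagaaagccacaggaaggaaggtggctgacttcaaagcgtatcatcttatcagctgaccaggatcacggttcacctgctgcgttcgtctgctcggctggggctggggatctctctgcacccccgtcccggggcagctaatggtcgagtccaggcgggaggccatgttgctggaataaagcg
The Septin8 window held none of these letters. The Septin9 window held 3 GC boxes, starting 61, 34 and 24 bases before the start, and the Septin11 window 1 E-box, 243 bases before it. Over all 32851 windows of this length in the table, 32.7% held a GC box and 6.02% held the E-box.

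Annotated starts differed in number among the septin genes. The table held 15 windows for 6 of the 10 genes, with 4 each for Septin4 and Septin9, 2 each for Septin2, Septin7 and Septin8 and 1 for Septin11. The second Septin8 window held 2 GC boxes, overlapping each other, and 1 MEIS motif. A MEIS motif was also in the second Septin7 window and the fourth Septin9 window, and 15.9% of all windows held one. Neither Septin8 window held the HOX-PBX motif, which was in 2.82% of all windows. CpG counts in the windows ran from 1 in the first Septin4 window to 36 in the second windows of Septin7 and Septin8, beside a median of 6 over all windows. A match is a description of the letters, and the arrays measured nothing at these starts.

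Septin9, of the SEPT3 group, was the septin with the largest difference in the other direction among those with a probe set of their own. It read 2593 and 2201 in leukemic and 7467 and 5063 in mature arrays. The leukemic arrays were close together and both below the mature ones, which differed from each other by 0.56 on the log2 scale. The log2 fold change was -1.36 (SE 0.27), and 31.7% of all tested genes lay farther from 0. Septin9 usually takes the place of its group in rods with Septin2, Septin6 and Septin7. It rested on 1 probe set, so there was no other to set beside it.

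Septin3, the other SEPT3-group member here, is known mainly from neurons. It read 101 and 99.9 in leukemic and 89.3 and 108 in mature arrays. The groups overlapped, and the difference was 0.03 (SE 0.41) on the log2 scale. It was below 0 under quantile normalization (-0.28), with every array at the same median (-0.25), with scaling to the hybridization controls (-1.12) and without mature replicate 1 (-0.09). The remaining probe sets of Septin3 were below the filter on low signals. One of them read 5.20 and 17.2 against 37.2 and 36.3, and the other stayed between 3.17 and 8.42 in all arrays.

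**Figure D1:**
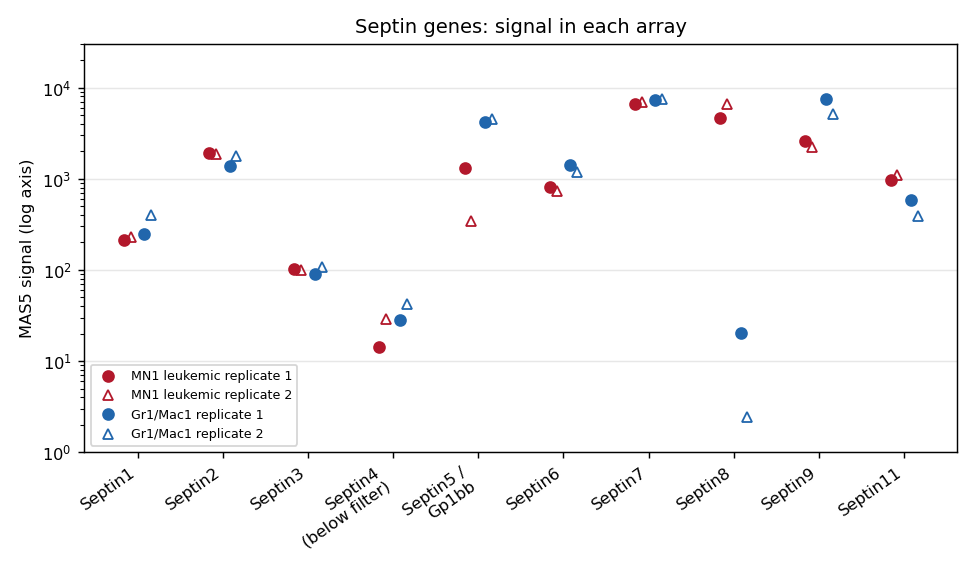
MAS5 signal (log axis) of each septin gene in the 4 arrays, read at its brightest probe set. Red marks leukemic and blue mature arrays, circles are replicate 1 and open triangles replicate 2. Septin8 reads 4656 and 6516 in leukemic against 20.2 and 2.47 in mature arrays, while Septin7 lies between 6610 and 7540 in all 4; Septin5 is seen only through a probe set shared with Gp1bb and Septin4 lies below the filter.

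The SEPT6 group, which also holds Septin6 and Septin11, had no common direction. Septin11, a broadly expressed member, read 964 and 1091 in leukemic and 580 and 387 in mature arrays. Both leukemic arrays were above both mature arrays, and the log2 fold change was 1.09 (SE 0.29). This brightest probe set has a suffix that marks possible matches to several transcripts. The next one, without that suffix, read 436 and 625 against 317 and 367, a smaller difference of 0.59 (SE 0.31). Another read 199 and 154 against 218 and 182, so the groups overlapped there, with -0.17 (SE 0.35). The Septin11 direction turned to -0.21 when arrays were scaled to the hybridization controls.

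Septin6, an X-linked gene, gave opposite readings at its different probe sets. The brightest of its 7 probe sets read 821 and 730 in leukemic and 1421 and 1181 in mature arrays. Both leukemic arrays were below both mature arrays, with a log2 fold change of -0.73 (SE 0.24). A second probe set read 418 and 319 against 223 and 234, the reverse order, with a difference of 0.64 (SE 0.31). Another read 227 and 199 against 138 and 107, also higher in leukemic arrays, with 0.73 (SE 0.35). The arrays overlapped at the remaining 4. At one of these, leukemic replicate 1 read 9.79 and leukemic replicate 2 read 117, the widest gap between replicates among the septin probe sets above the filter. As the mean of its probe sets Septin6 was at -0.04. These data therefore give no single direction for Septin6. On the brightest probe set the mature array with low Xist, replicate 2, read 1181 against 1421 in replicate 1, a difference of 0.26 on the log2 scale.

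**Figure D2:**
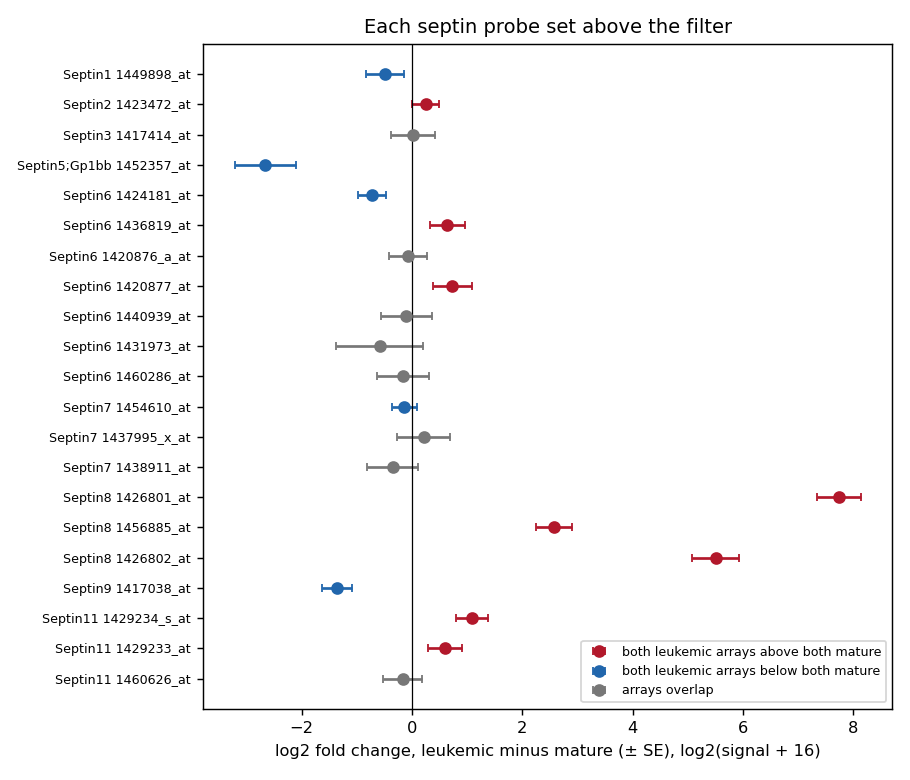
Log2 fold change, leukemic minus mature, with its SE, for each septin probe set above the filter and the probe set shared by Septin5 and Gp1bb, ordered by gene and then by mean signal. Colours show whether both arrays of one group lie beyond both of the other; the 3 Septin8 probe sets lie at 2.57 to 7.74, while those of Septin6 lie on both sides of 0, from -0.73 to 0.73.

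Septin7 is the only member of its group and is needed in every canonical septin rod. It read 6610 and 6891 in leukemic and 7292 and 7540 in mature arrays. The arrays did not overlap, but the log2 fold change of -0.14 (SE 0.22) was smaller than its error, and it turned to 0.11 under quantile normalization. A second probe set read 3026 and 2854 against 1448 and 4448. Here mature replicate 1 was the lowest array and mature replicate 2 the highest. The dimmest read 65.9 and 76.4 against 70.4 and 127, again with overlap.

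Septin2, the founding member of the SEPT2 group and a partner of Septin6 and Septin7 in rods, read 1912 and 1851 in leukemic and 1394 and 1791 in mature arrays. The leukemic arrays were just above the higher mature array, and the log2 fold change of 0.25 (SE 0.24) was about as large as its error. It turned to -0.07 with every array at the same median and to -1.07 with scaling to the hybridization controls. Its other probe set was below the filter and read 1.05 to 28.7.

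Septin1, of the same group and known from lymphocytes, read 213 and 228 in leukemic and 249 and 398 in mature arrays. The leukemic arrays were below the mature ones, with a small gap to mature replicate 1, and the log2 fold change was -0.49 (SE 0.35). Without mature replicate 2 it was -0.17. The 6 T cell markers with a probe set summed to 204 to 294 in leukemic and 494 to 532 in mature arrays, most of the latter from Cd3d at 373 and 384. Of these 6 markers 2 were higher in both leukemic arrays, Cd8a and Cd2, and 1 was lower, Cd3d. Cd3e read 14.3 to 38.4 in all arrays. The 5 B cell markers summed to 559 to 751 and 434 to 706, with Cd79a at 11.4 to 54.7 and Cd79b at 165 to 513. Vpreb1 was higher in both leukemic arrays (117 and 295 against 18.4 and 78.0). Ms4a1 was lower in both (46.6 and 5.88 against 130 and 98.4). The 3 NK cell markers summed to 878 to 1545 and 1282 to 1632, most of it from Nkg7 at 707 to 1547. Gzma was higher in both leukemic arrays (126 and 149 against 67.2 and 53.1), and the other NK cell markers overlapped. Of the 5 plasma cell markers 3 were lower in both leukemic arrays and 1 was higher, with Igha at 10.8 and 8.59 against 5805 and 1023 and Jchain at 61.9 and 15.8 against 826 and 311. Of all genes read without the filter on low signals, as these markers were, 37.2% were higher and 25% lower with no overlap. The part of lymphocytes in the Septin1 value was not tested.

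Septin4, another SEPT2-group member, whose gene also makes the proapoptotic protein ARTS, could not be read reliably. Its brighter probe set read 14.2 and 28.8 in leukemic and 28.0 and 42.0 in mature arrays. The dimmer one read 35.6 and 13.4 against 1.81 and 2.33. Both were below the filter and they pointed in opposite directions.

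Septin5 is known for its part in exocytosis, in neurons and in platelets, and its gene overlaps that of Gp1bb, a chain of the platelet receptor for von Willebrand factor, in the RefSeq table. The probe set shared by Septin5 and Gp1bb read 1326 and 344 in leukemic and 4161 and 4568 in mature arrays. The leukemic replicates differed by 1.90 on the log2 scale, and both were below the mature arrays, with a difference of -2.66 (SE 0.56). The probe set that names Gp1bb alone read 502 and 219 against 343 and 282 and overlapped between groups, with a log2 fold change of 0.09 (SE 0.42). A second probe set of Gp1bb alone had -0.05. How far the shared signal comes from either gene cannot be told apart. Of the 6 megakaryocyte and platelet markers with a probe set, 4 were higher in both leukemic arrays and 1 was lower. Without the filter on low signals, 37.2% of all genes were higher and 25% lower in this way. The 6 markers summed to 3048 to 3445 against 912 to 926. Itga2b read 2092 and 1794 against 207 and 233. The part of these cells in the shared signal was not tested.

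Across the family, 3 of the 8 readable genes were higher and 4 lower in leukemic marrow with no overlap between arrays. Of all tested genes, 74.2% did not overlap by the same measure, 45.9% higher and 28.3% lower. Among the 20 septin probe sets above the filter 8 were higher and 4 lower with no overlap, beside 41.4% and 28.6% of all probe sets above it. Since the septin genes were chosen with this comparison known, nothing is read from these counts. The median log2 fold change of the 8 genes was -0.05, and that of all tested genes was 0.28. Set against that median, Septin8 stood at 7.46, Septin11 at 0.81, Septin2 at -0.03, Septin3 at -0.25, Septin7 at -0.41, Septin1 at -0.76, Septin6 at -1.01 and Septin9 at -1.63. The order of the levels of change thus ran from Septin8 through Septin11 to Septin9, and neighbours between Septin2 and Septin6 lay within about 1 SE of each other.

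**Figure D3:**
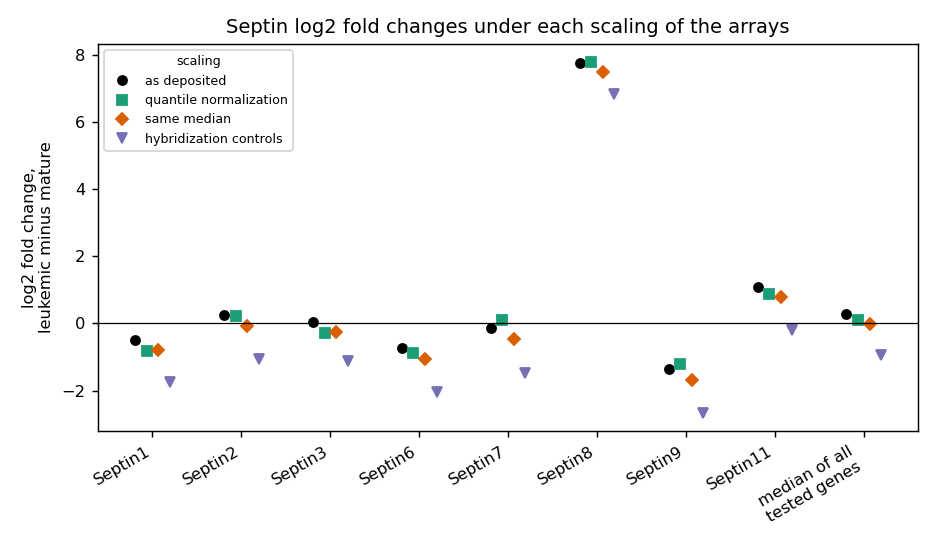
Log2 fold change, leukemic minus mature, of each readable septin gene under 4 scalings of the arrays, beside the median of all tested genes. Septin8 stays high, at 6.82 to 7.74 for the deposited scale and the hybridization controls. Septin2, Septin3, Septin7 and Septin11 cross 0, and the median of all genes moves from 0.28 to -0.95 with the controls.

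The scaling of the arrays moved the septin genes with all other genes. With every array at the same median the septin median was -0.35, beside a median of -0.02 over all genes. With arrays scaled to the hybridization controls it was -1.29, beside -0.95 over all genes. Septin8 (6.82) was then the only one of the 8 with higher leukemic arrays, and Septin9 was at -2.68. In every alternative computed for both genes, Septin8 stayed above 0 and Septin9 below 0, with ranges of 5.27 to 9.33 and -2.68 to -1.08.

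Genes whose products work with septins were compared from a list of 21, of which 19 were tested. In the fit over all genes 12 of them changed (limma, Benjamini-Hochberg adjusted p threshold 0.05), 4 rose and 8 fell, and the median was -0.69. Of all 12378 tested genes 43.4% changed, 27.5% higher and 15.9% lower. Scaled to the hybridization controls, 2 partners rose and 15 fell, while 1083 of all tested genes rose and 5944 fell.

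The CDC42 effector proteins, also called BORGs, bind septins and CDC42, and their genes had calls in both directions. Cdc42ep5 read 315 and 475 in leukemic and 4.87 and 12.5 in mature arrays, and it rose by 4.05 (SE 0.47, limma adjusted p = 0.0011). It passed the filter only through its leukemic signal, and its size depended on the pseudocount, with 5.44 at 1 and 2.64 at 64. With no filter on low signals its adjusted p was 0.0026. Cdc42ep3 read 3129 and 3096 against 10442 and 10068 and fell, with a log2 fold change of -1.71 (SE 0.22, limma adjusted p = 0.0015). Cdc42ep2 read 265 and 199 against 1255 and 815 and also fell, with -2.06 (SE 0.32, limma adjusted p = 0.0029). Cdc42ep4 was at 0.05 and did not pass, nor did Cdc42 itself, at -0.69 on its brightest probe set. The 4 probe sets of Cdc42 ran from -1.58 to -0.69, and 2 of them passed as lower. Cdc42ep1 was not tested because its probe sets were too dim.

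Other partners split in the same way. Nck2, an adaptor related to Nck1, rose by 2.41 (limma adjusted p = 0.0028), while Nck1 fell, with -1.49 (limma adjusted p = 0.0030). The Nck1 call rested on its brightest probe set and was lost without probe sets that can match several transcripts (-0.64, adjusted p = 0.47). Socs7, which binds NCK and septin proteins, rose by 1.30 (adjusted p = 0.0042), and the deacetylase gene Hdac6 by 1.04 (adjusted p = 0.033), but both turned to values below 0 with scaling to the hybridization controls, -0.01 and -0.23. Both of these calls were lost without leukemic replicate 2 (adjusted p = 0.051 and 0.16), and that of Hdac6 also without leukemic replicate 1 (0.21) or mature replicate 2 (0.066).

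The other partners that fell had different roles. Myh9, the nonmuscle myosin heavy chain that binds septins, had -1.86 (SE 0.37, limma adjusted p = 0.0069), at signals of 9864 and 4972 against 28989 and 22220, and all 5 of its probe sets passed as lower. The microtubule-associated protein gene Map4 had -1.65 (adjusted p = 0.0058), a call lost without leukemic replicate 2 (0.058). Orai1, the calcium channel whose clustering septins organise, had -1.86 (adjusted p = 0.0029), and its partner Stim1 did not pass (-0.69). Sh3kbp1, an adaptor, had -1.48 (adjusted p = 0.0042). Arhgef18, a RHOA exchange factor known to bind septins, had -0.78 (adjusted p = 0.046), and the adjusted p missed the threshold without mature replicate 1 (0.11) or with either leukemic array left out (0.11 for replicate 1 and 0.28 for replicate 2). The 7 partners that did not pass lay between -0.69 and 0.09 on their brightest probe sets. Among them were the cytokinesis scaffold genes Anln (-0.15) and Cit (0.09) and the kinesin gene Cenpe (-0.10). The 4 probe sets of Cit ran from -0.39 to 1.55, and 1 of them passed as higher.

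**Figure D4:**
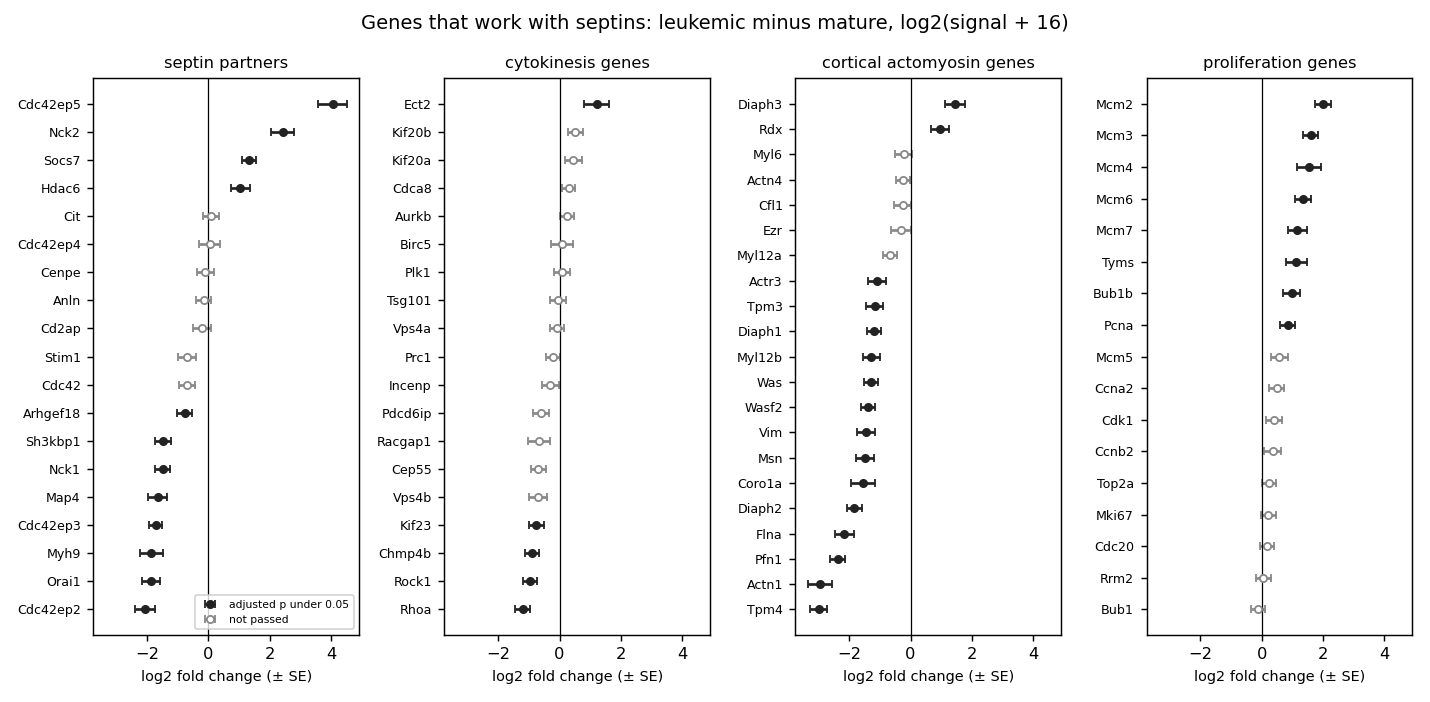
Log2 fold change, leukemic minus mature, with its SE, for the tested genes of 4 lists. Filled points passed the limma threshold after adjustment over all genes and open points did not. Most filled points lie below 0 among septin partners (8 of 12) and cortical actomyosin genes (14 of 16). Those among proliferation genes lie above 0 (8 of 8). Of all tested genes, 27.5% passed above 0 and 15.9% below 0.

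Among 21 tested genes of the cortical actin and myosin layer, which septins bind, 14 fell, 2 rose and 5 did not pass. The median was -1.28. The share that passed was 76.2%, with 66.7% lower, beside 43.4% and 15.9% of all tested genes. Tpm4, a tropomyosin that coats actin filaments, read 1539 and 1001 against 10744 and 9208 and fell, with -2.99 (SE 0.28, limma adjusted p = 5.8e-04). Actn1, which crosslinks actin, had -2.96, the actin monomer binder Pfn1 -2.37 and the crosslinker Flna -2.16 (limma adjusted p = 7.7e-04 to 0.0023). The formin gene Diaph3 rose by 1.44 (limma adjusted p = 0.010), and so did the membrane linker gene Rdx by 0.97 (limma adjusted p = 0.033), but with scaling to the hybridization controls Diaph3 lost its call (0.20, adjusted p = 0.60) and Rdx turned to -0.36. The Rdx call was also lost with every array at the same median (0.65, adjusted p = 0.16). Fewer genes of the list changed without leukemic replicate 2, all of them lower, and fewer of all tested genes changed there too. Both Diaph3 and Rdx lost their calls without leukemic replicate 1 (adjusted p = 0.11 and 0.089) or leukemic replicate 2 (0.080 and 0.18), and Rdx also without mature replicate 1 (0.071). Monocyte markers, which the mature gate selects, moved with these genes. All 5 were lower in both leukemic arrays, beside 25% of all genes read without the filter on low signals. The 5 markers summed to 5985 to 7752 against 28690 to 51680. Their part in the lower cortical genes was not tested.

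Of 19 tested genes of cytokinesis, the division step in which septins act, 14 did not pass, 4 fell and 1 rose, and the median was -0.21. The share that passed was 26.3%, beside 43.4% of all tested genes. With scaling to the hybridization controls 18 of the 19 passed, all lower. Of all 12378 tested genes 7027 passed with that scaling, 5944 of them lower. Rhoa, the switch of the contractile ring, fell with -1.19 (limma adjusted p = 0.0079), as did its kinase gene Rock1 (-0.97, adjusted p = 0.012), the membrane scission gene Chmp4b (-0.89, adjusted p = 0.021) and the midzone kinesin gene Kif23 (-0.75, adjusted p = 0.037). Ect2, the exchange factor for RHOA at the furrow, rose by 1.21 (adjusted p = 0.049), a call lost whenever leukemic replicate 1, leukemic replicate 2 or mature replicate 1 was left out (adjusted p = 0.075 to 0.18), and turned to -0.11 with scaling to the hybridization controls. The calls of Rock1 (adjusted p = 0.082 and 0.075), Chmp4b (0.12 and 0.083) and Kif23 (0.13 and 0.25) were lost without leukemic replicate 1 or 2, that of Kif23 also without mature replicate 1 (0.068), and that of Rhoa without leukemic replicate 2 (0.069). With probe sets averaged per gene Rock1 was at -0.60 (adjusted p = 0.18), and without probe sets that can match several transcripts Chmp4b was at -0.58 (adjusted p = 0.105). Most calls of the list were lost without leukemic replicate 1 and all of them without leukemic replicate 2. Fewer of all tested genes passed there too.

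Proliferation genes were higher in part. Of 17 tested, 8 rose and none fell (limma, 0 lower also at an unadjusted p under 0.05), with a median of 0.58. The share that passed was 47.1%, beside 43.4% of all tested genes, of which 27.5% were higher and 15.9% lower. But with scaling to the hybridization controls none of the 17 rose and 9 fell. With that scaling 1083 of all 12378 tested genes rose and 5944 fell. The DNA replication helicase genes Mcm2 (1.99, limma adjusted p = 0.0017), Mcm3 (1.59), Mcm4 (1.54) and Mcm6 (1.35, limma adjusted p = 0.0054) had the largest increases. The Mcm4 call was lost without leukemic replicate 1 (adjusted p = 0.053) or 2 (0.099). Of the mitotic genes, Bub1b rose by 0.98 (limma adjusted p = 0.029), while Mki67 (0.21) and Top2a (0.24) did not pass. The Bub1b call was lost with every array at the same median and with either leukemic array left out. Fewer genes of the list passed without leukemic replicate 1 or leukemic replicate 2, and more passed without mature replicate 1. The number over all tested genes moved in the same direction each time.

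The genes next to the septin genes on the chromosome were also read, from the RefSeq gene order. Of 20 nearest protein-coding neighbours 16 were tested, of which 4 rose, 3 fell and 9 did not pass. Since 43.4% of all tested genes changed, nothing particular to neighbours is read from this count. Kif3a, a kinesin gene beside Septin8 on chromosome 11, rose with it. Kif3a read 447 and 664 in leukemic and 75.6 and 30.9 in mature arrays, a log2 fold change of 3.10 (SE 0.45, limma adjusted p = 0.0023), and all 4 of its probe sets passed as higher. The neighbour on the other side, Sowaha, was not tested. Beside Septin9, Sec14l1 read 659 and 841 in leukemic and 2990 and 2591 in mature marrow and fell (-1.88, SE 0.25, limma adjusted p = 0.0016). The 2 probe sets of Sec14l1 ran from -1.88 to -0.82, and 1 of them passed as lower. On the other side of Septin9, Tnrc6c fell at its brightest probe set (-0.76, limma adjusted p = 0.042). The 3 probe sets of Tnrc6c ran from -0.76 to 0.25 and averaged -0.15 (limma adjusted p = 0.67). The adjusted p also missed the threshold without mature replicate 1 (0.077) or with either leukemic array left out (0.28 for replicate 1 and 0.14 for replicate 2).

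Neighbours of other septin genes had other directions. Beside Septin6 on the X chromosome, Nkrf rose by 2.76 (limma adjusted p = 0.0011), while Septin6 had no single direction. Beside Septin1, Mylpf rose by 2.20 and Zfp553 by 1.75 (limma adjusted p = 0.0026 and 0.0049), the latter call lost without leukemic replicate 2 (0.071), while Septin1 itself read lower. Beside Septin11, Ccni fell (-0.77, adjusted p = 0.031), a call lost without leukemic replicate 1 (0.12) or leukemic replicate 2 (0.16), while Septin11 read higher. No call was made for the tested neighbours of Septin2, Septin3, Septin4, Septin5 and Septin7.

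Markers of other cell types also differed between the groups. All 7 stem and progenitor markers and all 5 mast cell and basophil markers were higher in leukemic marrow with no overlap. Of all genes read as the markers were, without the filter on low signals, 37.2% were higher and 25% lower with no overlap. The stem and progenitor markers summed to 54070 to 65150 against 2417 to 3349. Those of mast cells and basophils summed to 53250 to 64840 against 395 to 558. The 8 neutrophil markers summed to overlapping levels, 221800 to 365200 against 242100 to 313500, with S100a8 at 55476 to 90661 and S100a9 at 50892 to 92219, which carried much of the sums. Of these 8 markers 3 were lower in both leukemic arrays and none was higher: Itgam, Csf3r (4311 and 1899 against 17298 and 16368) and Cxcr2 (1059 and 528 against 3528 and 6464). The 5 erythroid markers summed to 19190 to 26000 against 3694 to 7434, with Klf1 at 9157 and 11465 against 54.3 and 101. Of these, 3 were higher in both leukemic arrays and 2 overlapped, Alas2 at 1354 and 3152 against 6164 and 2176 and Hba-a1 at 31.3 and 22.9 against 24.2 and 78.9. The part of these cells in the Septin8 and Septin9 differences was not tested.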

How the data were processed

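Total RNA of 4 samples was hybridised to 1 array each. The deposited values are MAS5 signals, a linear intensity which the authors made in GCOS (version 1.3.0), as the submitters' processing notes record. Neither the settings nor detection calls were at hand. Every column belonged to a sample. MAS5 scales each array linearly and leaves dim probe sets noisy.

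Signals were taken as log2(signal + 16). The 64 control probe sets of 45101 and the dimmest 40% of the others were left out. Each gene was read from its brightest probe set with 1 platform symbol. The comparison used R 4.3.3 and limma 3.58.1 (lmFit, eBayes with trend, two-sided, Benjamini-Hochberg over 12378 genes), tested on simulated data. Plots and the promoter search used Python 3.11.15 and matplotlib 3.10.9. The number of arrays limits the precision, and an exact permutation test of 2 against 2 cannot go below p = 0.33.

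The septin genes, gene lists and naming rule were chosen with earlier results of these data known. The rule named every septin, each changed partner, up to 4 changed genes in the main and 2 in the other direction of each other list, and chromosomal neighbours. Bub1b was named in addition to this rule. A planned comparison of septin protein sequences was not run. Alternatives were other pseudocounts, filters, scalings, probe set choices, variance models, a replicate block and leaving out each array. The replicate numbers 1 and 2 pair nothing in the labels.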

Additional observations from a re-analysis of the deposited data

How the results depend on the processing

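Over all genes 5375 changed, 63.3% of them higher; with equal array medians the share was 49.7% (4557 genes), and it was 15.4% with scaling to the hybridization controls (7027 genes). Leaving out 1 array gave 2575 to 5441 changed genes, 8 to 15 cortical actomyosin, 0 to 6 cytokinesis and 3 to 10 proliferation genes. Cytokinesis genes numbered 18 with the hybridization controls, all lower, and 3 with probe sets averaged per gene, without probe sets that can match several transcripts, or without a variance trend. Proliferation genes numbered 4 at the same median and 5 without a variance trend. Septin genes higher with no overlap numbered 1 with the hybridization controls, and those lower numbered 2 with the mean of probe sets. The septin median was -0.35 at the same median and -1.29 with the controls. Reversed values were, with the controls, Septin11 (-0.21), Septin2 (-1.07), Ect2 (-0.11), Hdac6 (-0.23), Rdx (-0.36) and Socs7 (-0.0069), at the same median Septin2 (-0.069), and under quantile normalization Septin7 (0.11). Septin3, near 0 at first (0.03), was at -1.12 with the controls, -0.25 at the same median and -0.28 under quantile normalization; apart from the scaling itself, the cause was not tested. Other calls lost under scalings or probe set choices included Hdac6 at the same median (adjusted p = 0.18) and under quantile normalization (0.12), Ect2 at the same median (0.093), Kif23 with probe sets averaged (0.078), Ccni under quantile normalization (0.084) and with probe sets averaged (0.099), and Zfp553 with the controls (0.20). Septin partners numbered 8 to 17 over all alternatives. With the replicate block 5562 genes changed. Of the named genes other than Bub1b, which was not followed there, only Tnrc6c lost its call (limma adjusted p = 0.055). Deviations of same-numbered arrays correlated at -0.03, and whether these arrays were paired was not tested. Dim signals limit Septin4 and the mature level of Septin8.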
